A study of Homo sapiens with 30 samples.

Results

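The genes described here are 36 genes of glycolysis and of the cellular response to low oxygen, picked by their symbols in the deposited table of run-on counts and by the gene names in the deposited annotation of the ChIP peaks. All 36 were among the 26475 symbols of the count table. HT1080, the human fibrosarcoma line used throughout, was grown in DMEM at passage 10 to 15 with no treatment. Global run-on sequencing (GRO-seq), in which nuclei extend engaged transcripts with a bromouridine nucleotide so that newly made RNA can be captured, was done on WT cells, on cells labelled hNABP2 KO and on cells labelled hNABP1 KO. Each of these 3 kinds of cell was run on in a reaction with NTP and in one with no NTP, the latter a background, with 3 repeats each, which gives 18 libraries. Chromatin of WT cells was precipitated with a homemade anti-hNABP2 antibody in 2 repeats, and RNA:DNA hybrids of WT and hNABP2 KO cells were precipitated with the S9.6 antibody (DRIP-seq) in 2 repeats each. hNABP2 and hNABP1, encoded by NABP2 and NABP1, are related proteins that bind single-stranded DNA. The sources used here do not say how the knockouts were made or whether each line is 1 clone. The IgG and RNase H libraries were not analysed here.

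Glycolysis turns glucose into pyruvate. Glucose enters through SLC2A transporters, hexokinases trap it, phosphofructokinases commit it to breakdown, and lactate dehydrogenases with the exporter SLC16A3 remove the end product. When oxygen is scarce, the prolyl hydroxylases EGLN1 and EGLN3 no longer mark HIF1A for destruction, and this transcription factor with its partner binds short elements, read ACGTG or GCGTG, near many of the same genes as well as at VEGFA, CA9 and BNIP3. HIF activity raises the transcription of the glycolytic enzymes in many tumour cells, and all the cells here were grown without a low-oxygen treatment according to the labels.

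The run-on libraries were shallow, with 5272 to 164357 counts each, and the 36 genes together held 2130 of all 627521 counts (0.339%). Their summed counts over the 18 libraries ran from 5 to 150 with a median of 46, against a median of 13 over all genes, and 32 of the 36 reached the 10 counts needed to enter a test, against 56.3% of all genes. The transporter SLC2A3, the aldolase ALDOC, EGLN3 and the peptide hormone gene ADM stayed below with 7, 7, 8 and 5 counts. Repeat 3 held 81.1% of these counts, close to its 82.6% of the counts of all genes. The libraries labelled hNABP2 KO with NTP had 4, 3 and 15 NABP2 counts against 4, 0 and 8 in WT, and those labelled hNABP1 KO had 0, 1 and 18 NABP1 counts against 1, 0 and 19 in WT, so these counts do not check the labels. A list of 10 mesenchymal markers fitting HT1080 held 3650 counts, but 2806 of them were on COL5A1 alone and 988 of those in 1 library, hNABP1 KO without NTP repeat 3. VIM had 214, FN1 144 and MMP1 2. Epithelial, leukocyte and neural marker lists held 48, 64 and 204 counts in all. The labels speak of 2 independent experiments beside 3 run-on repeats, so p-values measure the spread between these libraries, which may in part be technical.

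Anti-hNABP2 peaks lay at the promoters of most of these genes in the first ChIP repeat and of 9 in both. In repeat 1, 28 of 36 genes (77.8%) had a peak annotated within 1 kb of a transcript start, against 28.4% of all genes in the table. In repeat 2, 9 of 36 (25.0%) had one, against 9.08% of all genes, and the same 9 made up the count for both repeats, against 7.76% of all genes. These genes have more run-on counts than most, and so do genes with a peak: the median was 35 counts over all genes with a repeat 1 promoter peak and 6 over those without. Among genes with at least 10 run-on counts the background was higher, at 48.4% in repeat 1, where 28 of 32 of the genes described had a peak (87.5%), and 13.3% for both repeats, where 9 of 32 did (28.1%). The part of transcription level in these counts was not tested. With promoters taken out to 3 kb the counts were the same 28, 9 and 9, against 28.7, 9.18 and 7.85% of all genes. At a −log10 q of at least 10 they were 21 in repeat 1, 1 in repeat 2 and 0 in both, against 18.5, 0.706 and 0.514% of all genes. The recurrence thus rests on peaks weaker than this in 1 or both repeats. Of the repeat 1 peaks shared with repeat 2, those at HK1, PDK1, MXI1 and PFKP were also below 10, at 6.30, 9.98, 8.53 and 2.14. PFKP had another repeat 1 promoter peak at 13.9, which no repeat 2 peak overlapped.

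By role, promoter peaks of repeat 1 were found in each of the 6 groups of genes, from glucose entry to the HIF targets. Glucose entry had 3 of 4 genes with a peak, upper glycolysis 6 of 9, lower glycolysis 5 of 6, and the pyruvate and lactate genes 4 of 4. In oxygen sensing 2 of 3 had one, and among the other HIF targets 8 of 10 did. The 9 with a peak in both repeats were SLC2A1, HK1, PFKL, PFKP, SLC16A3, PDK1, EGLN1, BNIP3 and MXI1. PDK1 inhibits pyruvate dehydrogenase, BNIP3 is a mitophagy receptor and MXI1 a MYC antagonist. In lower glycolysis, from GAPDH to PKM, 0 of 6 were among the 9. No promoter peak in either repeat was annotated to ADM, ALDOC, CA9, EGLN3, ENO2, GPI, PFKM or SLC2A3. PFKM is a special case, since 4 of its 7 RefSeq starts lie under a repeat 1 peak at chr12:48105814-48106116 that is annotated to the neighbouring gene SENP1, with a fold of 2.59.

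**Figure D1:**
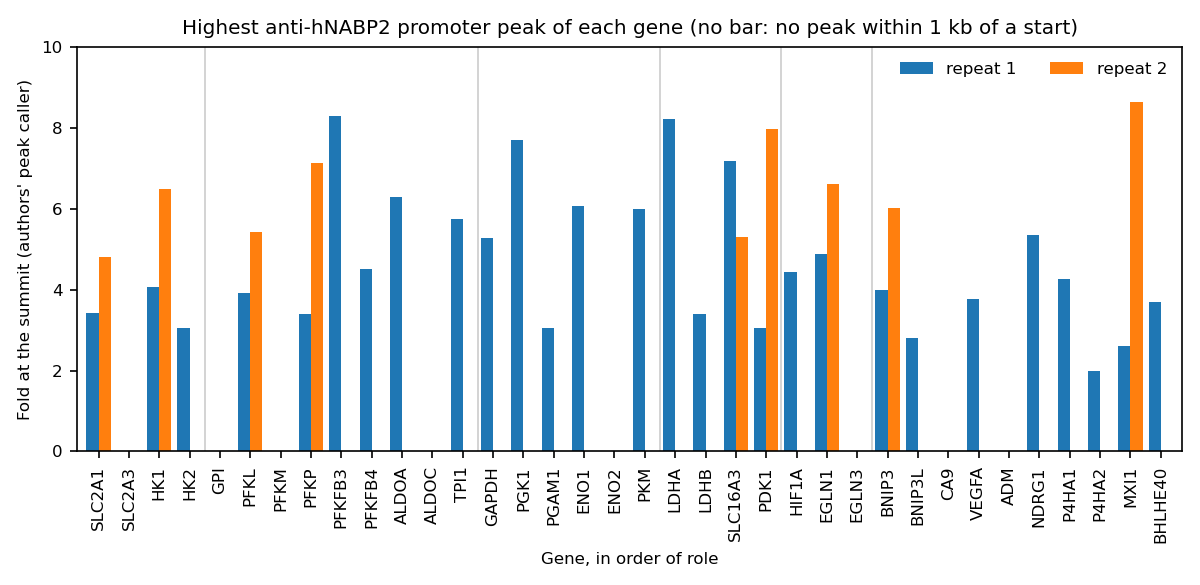
Fold at the summit of the highest anti-hNABP2 promoter peak of each gene (y axis, the authors' peak caller) in repeat 1 (blue) and repeat 2 (orange), 1 ChIP library each, genes in order of role along the x axis. A missing bar means no peak within 1 kb of a start; 28 genes have a blue bar and 9 have both, and PFKFB3 and LDHA, the highest in blue, have no orange bar.

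Each peak carries the fold of its summit over local background and a −log10 q, both the authors' values. The 40 promoter peaks of these genes in repeat 1 had folds of 1.72 to 8.30 with a median of 3.73, against a median of 3.16 over all promoter peaks of that repeat, and their median −log10 q was 16.9 against 12.8. In repeat 2 the 10 peaks had folds of 4.81 to 8.65 with a median of 6.46, against 5.87 over all promoter peaks, and −log10 q values of 3.12 to 10.7. The 2 repeats differed in the peaks they listed, with 10055 annotated peaks in repeat 1 and 2816 in repeat 2, so folds are not compared between them.

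The 3 highest folds of repeat 1, singled out after the values were seen, were at genes without a peak in repeat 2. PFKFB3, which makes the metabolite that switches phosphofructokinase on, had a fold of 8.30 and a −log10 q of 162 over chr10:6202703-6203761. LDHA, which turns pyruvate into lactate, followed with 8.22 over chr11:18394389-18394889. PGK1, an ATP-making enzyme of the lower pathway, had 7.71 over chrX:78103917-78104305. Each of these peaks lay across an annotated start. For the 19 genes with a peak in repeat 1 only, the highest fold per gene had a median of 4.51 (range 2.00 to 8.30). For the 9 with peaks in both it had a median of 3.91 (range 2.60 to 7.18). At HK1 and PFKP this highest peak was not the one shared with repeat 2. The shared PFKP peak had a fold of 2.18 in repeat 1. Over all annotated genes the corresponding medians were 3.21 for 5861 genes and 3.33 for 2113 genes.

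Among the 9, the 6 with the highest folds in repeat 1 are given with their positions on hg38. SLC16A3, the lactate exporter, had its main peak over chr17:82228882-82229533 (fold 7.18), and the repeat 2 peak over chr17:82228744-82229240 (fold 5.30) overlapped it. At EGLN1, the main oxygen sensor, the peaks lay over chr1:231421891-231422711 (4.88) and chr1:231421699-231422498 (6.62). HK1 had 2 peaks in repeat 1, over chr10:69392535-69392718 (4.08, −log10 q only 2.04) and chr10:69318525-69319078 (2.38), and it was the latter that the repeat 2 peak overlapped. All of these peaks are annotated as promoter peaks within 1 kb of a start.

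BNIP3 had peaks over chr10:131981648-131982456 (3.98) and chr10:131982140-131982601 (6.02). PFKL, the liver-type phosphofructokinase, had them over chr21:44299761-44300671 (3.91) and chr21:44299828-44300358 (5.42). SLC2A1, the main basal glucose transporter, had them over chr1:42958281-42959105 (3.43) and chr1:42958230-42958578 (4.81). In each of the 9 genes a repeat 1 peak and a repeat 2 peak overlapped by at least 1 bp.

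Most of the peaks sat on the starts. Of the 40 promoter peaks of repeat 1, 28 covered an annotated start, and of the 10 of repeat 2, 6 did. The share over all promoter peaks was not worked out. In repeat 1 the widths of the 40 ran from 167 to 1059 bp with a median of 562. The summit lay at a median of 52.5 bp into the transcript, against 44 bp over all promoter peaks of that repeat, and 65% of the summits lay after the start, against 61.7%. In repeat 2 the median was 64 bp, against 67 over all promoter peaks.

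**Figure D2:**
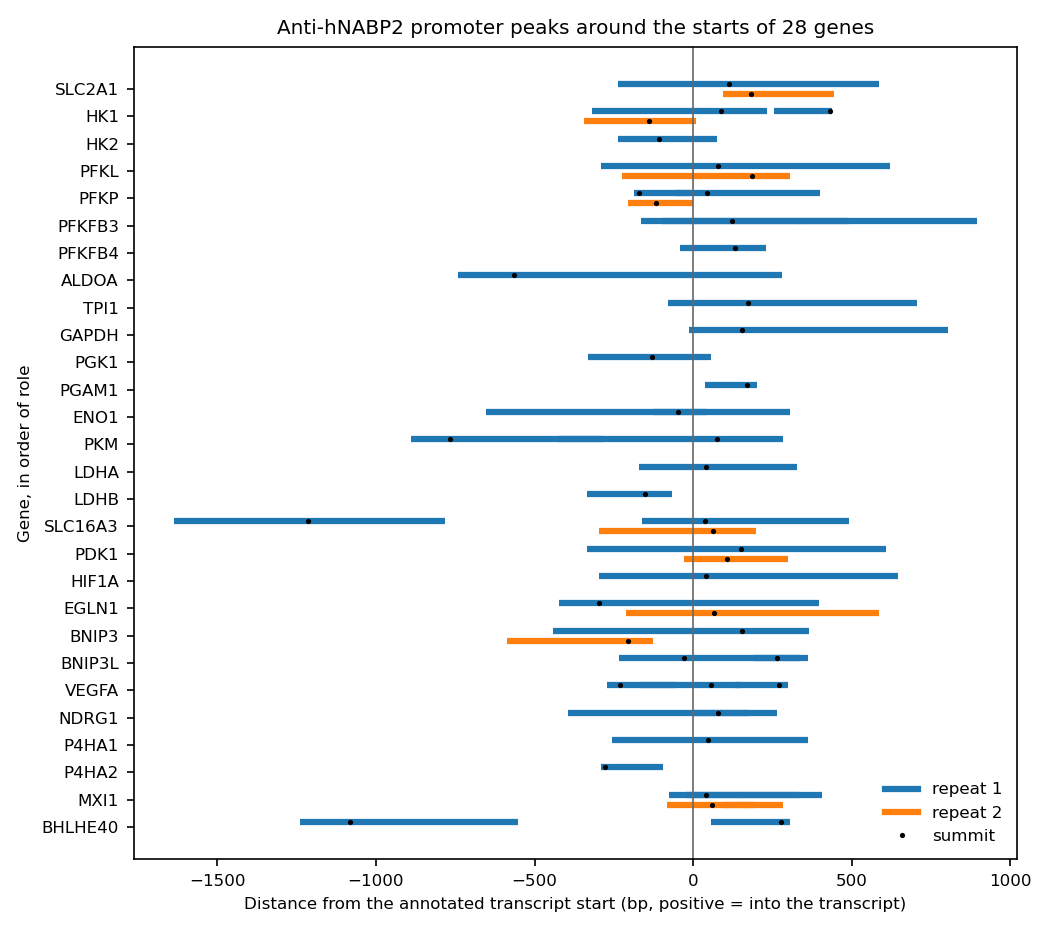
Anti-hNABP2 promoter peaks of the 28 genes with one, as bars by distance from the annotated transcript start (x axis, bp, positive into the transcript), in repeat 1 (blue) and repeat 2 (orange), with black dots at the summits. Most bars cross the start, and the bars that begin farthest before it belong to SLC16A3 and BHLHE40.

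Sequence before the start is shown for 4 genes, so that bound promoters can be read beside unbound ones. They have the highest repeat 1 folds among those bound in both repeats with at least 100 bases clear of another transcript's exon. BNIP3 is cut to 160 bases that end short of its start at chr10:131981923. The stretches are not wholly under the peaks. At BNIP3 the repeat 2 peak covers only the first 34 letters, before the marked ones. At SLC16A3 the repeat 1 peak begins inside the stretch, at chr17:82228882. The letters are RefSeq sequence of GRCh38.p14 upstream of the start, 5′ to 3′ on the gene's strand, and the capitals mark ACGTG or GCGTG on either strand (CACGT or CACGC when read from the other). They come from chr17:82228792-82229041 on the plus strand for SLC16A3, chr1:231422288-231422537 on the minus strand for EGLN1, chr10:131982014-131982173 on the minus strand for BNIP3 and chr21:44299803-44300050 on the plus strand for PFKL.
SLC16A3: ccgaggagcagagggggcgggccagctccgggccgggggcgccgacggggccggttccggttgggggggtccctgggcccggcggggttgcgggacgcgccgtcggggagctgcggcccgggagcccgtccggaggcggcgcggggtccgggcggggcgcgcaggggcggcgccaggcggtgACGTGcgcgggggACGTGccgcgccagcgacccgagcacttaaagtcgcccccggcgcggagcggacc
EGLN1: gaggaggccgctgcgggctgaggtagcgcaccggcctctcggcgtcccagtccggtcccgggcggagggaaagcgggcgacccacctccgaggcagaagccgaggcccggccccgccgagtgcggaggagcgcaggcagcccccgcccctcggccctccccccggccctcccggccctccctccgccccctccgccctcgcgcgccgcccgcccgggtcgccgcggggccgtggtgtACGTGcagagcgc
BNIP3: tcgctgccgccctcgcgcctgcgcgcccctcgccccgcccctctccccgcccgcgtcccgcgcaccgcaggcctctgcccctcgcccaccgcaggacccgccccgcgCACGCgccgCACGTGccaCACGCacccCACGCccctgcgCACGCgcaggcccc
PFKL: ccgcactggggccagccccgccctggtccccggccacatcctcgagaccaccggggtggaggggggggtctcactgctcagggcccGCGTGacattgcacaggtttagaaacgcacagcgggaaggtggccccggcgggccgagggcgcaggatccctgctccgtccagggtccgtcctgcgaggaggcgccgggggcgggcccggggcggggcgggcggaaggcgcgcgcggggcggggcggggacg

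For comparison, the 250 bases before the start are shown for 2 genes with no peak annotated to them in either repeat. They were chosen as those with the most run-on counts and a clear window. GPI, the isomerase of the upper pathway, is at chr19:34364742-34364991 on the plus strand. ENO2, an enolase, is at chr12:6914330-6914579 on the plus strand.
GPI: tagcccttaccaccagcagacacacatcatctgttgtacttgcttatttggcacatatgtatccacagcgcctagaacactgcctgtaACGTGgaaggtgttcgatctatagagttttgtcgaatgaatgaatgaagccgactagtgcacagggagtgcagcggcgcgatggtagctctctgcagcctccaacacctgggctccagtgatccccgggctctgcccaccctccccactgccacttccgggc
ENO2: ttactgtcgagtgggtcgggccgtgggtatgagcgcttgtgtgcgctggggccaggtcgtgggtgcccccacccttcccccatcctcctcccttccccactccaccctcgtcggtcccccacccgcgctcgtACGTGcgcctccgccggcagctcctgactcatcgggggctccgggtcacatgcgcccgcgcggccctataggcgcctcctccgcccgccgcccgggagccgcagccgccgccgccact

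The bound windows were rich in G and C, at 83.2% for SLC16A3, 81.2% for EGLN1, 83.75% for BNIP3 and 77.8% for PFKL. Of the unbound ones, GPI had 54.8% and ENO2 74%. SLC16A3 held 2 ACGTG, EGLN1 held 1, and BNIP3 held 2 (the palindrome CACGTG read on both strands) beside 4 GCGTG. PFKL had 1 GCGTG, and the windows without a peak had 1 ACGTG each, so the letters occurred with and without a peak.

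Promoter sequence was found for 32 of the 36 genes, and SLC2A3, VEGFA, NDRG1 and BNIP3L had none in the RefSeq table used. Over the 61 windows of 250 bases before the starts of the 32 genes, the median GC content was 68.4%, against 58% over 35116 windows of all genes. ACGTG on either strand was in 37.7% of the windows, against 18.5% of all. GCGTG was in 31.1%, against 32.2%, and CACGTG, which overlaps ACGTG, in 13.1%, against 6.34%. The share was thus above that of all windows for ACGTG and not for GCGTG. Windows of 1 gene can overlap and are not independent.

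Windows under a repeat 1 peak had more of both motifs in both sets. Of the 28 such windows of these genes 46.4% held ACGTG and 39.3% GCGTG, against 24.2% and 51.9% of the 8394 such windows of all genes. Either motif was in 71.4%, against 62.7%. Under peaks of both repeats, 8 of 8 windows held either motif, against 61.1% of 1649 windows. These windows belong to 8 of the 9 genes with a promoter peak in both repeats. The window of the other gene, SLC2A1, lay under its repeat 1 peak only and held neither motif. A window counted when a peak overlapped part of it, and the motif could lie outside the peak. The overlap with the repeat 2 peak was 34 bases at BNIP3 and 39 at HK1. The median GC content was 72.4% under the repeat 1 peaks of these genes and 58% in their other windows, and 70.4% and 53.2% over all genes, and its part in the shares was not tested.

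Peaks called on the run-on libraries themselves touched few of these genes, apart from 1 library. In repeat 3 of the cells labelled hNABP1 KO with NTP, 16 of 36 genes had a run-on peak over the gene body, against 26.7% of the 25082 genes with a RefSeq position. They were SLC2A1, HK1, PFKL, PFKM, PFKFB3, ALDOA, PGK1, PGAM1, PKM, LDHA, SLC16A3, PDK1, BNIP3, NDRG1, P4HA1 and MXI1. That library lists 9965 peaks, while the other libraries with NTP list 94 to 518. Of its 18 peaks on these genes, 16 overlapped an anti-hNABP2 peak of ChIP repeat 1, against 47.1% of all its peaks. The latter share is over all peaks, on a gene or not, so it is not a matched background. The folds of the 18 peaks ran from 2.62 to 49.1, the highest at MXI1, with a median of 7.89. PFKM alone of the 16 had no ChIP promoter peak annotated to it.

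The other run-on lists had P4HA1, a collagen prolyl hydroxylase, in WT repeat 1 (background 0.279% of genes), NDRG1, a stress-response gene, in hNABP2 KO repeat 1 (0.666%), and SLC2A3, PFKFB3 and P4HA1 in hNABP1 KO repeat 1 (1.66%). PFKFB3 was the 1 gene in hNABP1 KO repeat 2 (1.53%). WT repeats 2 and 3 and hNABP2 KO repeats 2 and 3 had 0 of the 36, with backgrounds of 0.73, 0.973, 1.16 and 0.227%. PFKFB3 was therefore in all 3 lists of cells labelled hNABP1 KO and in 0 of 6 of the others, lists which differ in length. The share of all genes with this pattern was not worked out. The peak lists and the gene counts differ, since PFKFB3 had 2, 0 and 68 counts in these 3 libraries and thus 0 in repeat 2. P4HA1, NDRG1 and SLC2A3 also had 0 counts in the repeat 1 libraries whose lists name them. In DRIP, 0 of the 36 genes had a hybrid peak in any of the 4 lists without RNase H, where 0.355 and 0.307% of all genes had one in WT and 0.0359 and 0.319% in hNABP2 KO, and 0 of 440 annotated DRIP peaks named one of them.

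The run-on counts of the 12 genes with the most counts are given per library, first with NTP, in the order repeat 1, 2 and 3. Symbols are counted as the table gives them. The sources used here do not say whether the counting used strand, and GAPDH, LDHA, PGK1, ENO1, PKM and TPI1 have near-identical pseudogene copies, so their counts are uncertain. Fewer cells and less new RNA per cell cannot be told apart in such libraries.

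SLC2A1 had 3, 0 and 19 counts in WT, 0, 0 and 18 in hNABP2 KO and 1, 0 and 69 in hNABP1 KO. HK2, the inducible hexokinase that catalyses the opening step, had 4, 0 and 24 in WT, 8, 0 and 12 in hNABP2 KO, and 5, 1 and 15 in hNABP1 KO. For both genes the groups overlapped, and the 69 counts of SLC2A1 in hNABP1 KO repeat 3 were its highest value. Without NTP, SLC2A1 had 0, 0 and 0 in WT, 0, 1 and 14 in hNABP2 KO, and 1, 1 and 2 in hNABP1 KO. HK2 had 3, 0 and 5, then 0, 2 and 2, then 4, 0 and 0 in the same order of groups. The antisense gene SLC2A1-AS1 had 49 counts in all, of which 30 were in hNABP1 KO with NTP repeat 3, the library in which SLC2A1 was highest. Whether reads were shared between them was not tested.

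In the upper pathway PFKFB3 had the most counts of all 36 genes, 150. With NTP it had 0, 0 and 32 counts in WT, 0, 0 and 16 in hNABP2 KO, and 2, 0 and 68 in hNABP1 KO. Without NTP it had 0, 1 and 3 in WT, 2, 1 and 25 in hNABP2 KO, and 0, 0 and 0 in hNABP1 KO. Nearly all of its counts thus came from repeat 3, with hNABP1 KO with NTP highest. PFKP, the platelet-type phosphofructokinase, had 1, 0 and 16 in WT, 4, 0 and 13 in hNABP2 KO, and 2, 1 and 10 in hNABP1 KO with NTP, and 0, 1 and 1, then 3, 0 and 9, then 0, 1 and 1 without. ALDOA, the aldolase that splits the sugar, had 3, 0 and 41 in WT, 4, 1 and 23 in hNABP2 KO, and 5, 3 and 25 in hNABP1 KO with NTP. Its no NTP counts were 3, 0 and 4, then 3, 0 and 15, then 2, 2 and 2. PFKP and ALDOA overlapped between WT and each knockout, and the hNABP2 KO values of ALDOA were all below those of hNABP1 KO once scaled to library size.

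In the lower pathway GAPDH, the enzyme that begins the energy-yielding steps, had 4, 0 and 13 counts with NTP in WT, 15, 0 and 26 in hNABP2 KO, and 6, 1 and 14 in hNABP1 KO. ENO1, the main enolase, had 2, 0 and 40, then 19, 0 and 32, then 7, 0 and 10. PKM, pyruvate kinase, had 3, 0 and 25, then 14, 0 and 17, then 5, 0 and 42. All 3 were at 0 or 1 count in repeat 2 of every group with NTP, so the groups overlapped there. Without NTP, GAPDH had 4, 1 and 2 in WT, 6, 2 and 12 in hNABP2 KO, and 3, 0 and 1 in hNABP1 KO. ENO1 had 13, 0 and 1, then 2, 0 and 9, then 3, 0 and 0. PKM had 10, 0 and 1, then 4, 2 and 12, then 3, 1 and 0. The 13 and 10 counts of ENO1 and PKM in WT without NTP both stand in repeat 1, and ENO1-AS1, on the other strand, had 41 counts in all.

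LDHA had 1, 0 and 15 counts with NTP in WT, 16, 0 and 17 in hNABP2 KO, and 4, 0 and 27 in hNABP1 KO. PDK1 had 1, 1 and 24, then 3, 1 and 13, then 3, 2 and 21. LDHA overlapped between the groups through its 0 counts in repeat 2, while PDK1 scaled to library size was higher in all 3 hNABP1 KO libraries than in any WT library. Without NTP, LDHA had 7, 0 and 1 in WT, 0, 1 and 12 in hNABP2 KO, and 3, 1 and 0 in hNABP1 KO. PDK1 had 1, 0 and 3, then 1, 1 and 6, then 0, 0 and 3.

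Of the oxygen-response genes, EGLN1 had 1, 1 and 35 counts with NTP in WT, 3, 1 and 17 in hNABP2 KO, and 1, 1 and 45 in hNABP1 KO. VEGFA, the vessel growth factor, had 0, 0 and 36, then 1, 1 and 12, then 3, 1 and 9. Both overlapped between genotypes. Without NTP, EGLN1 had 0, 0 and 1, then 1, 1 and 15, then 0, 0 and 3, and VEGFA had 1, 1 and 2, then 1, 1 and 6, then 0, 0 and 0. EGLN1 in WT was higher with NTP than without in every library, scaled to library size. HIF1A itself had 44 counts over the 18 libraries.

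**Figure D3:**
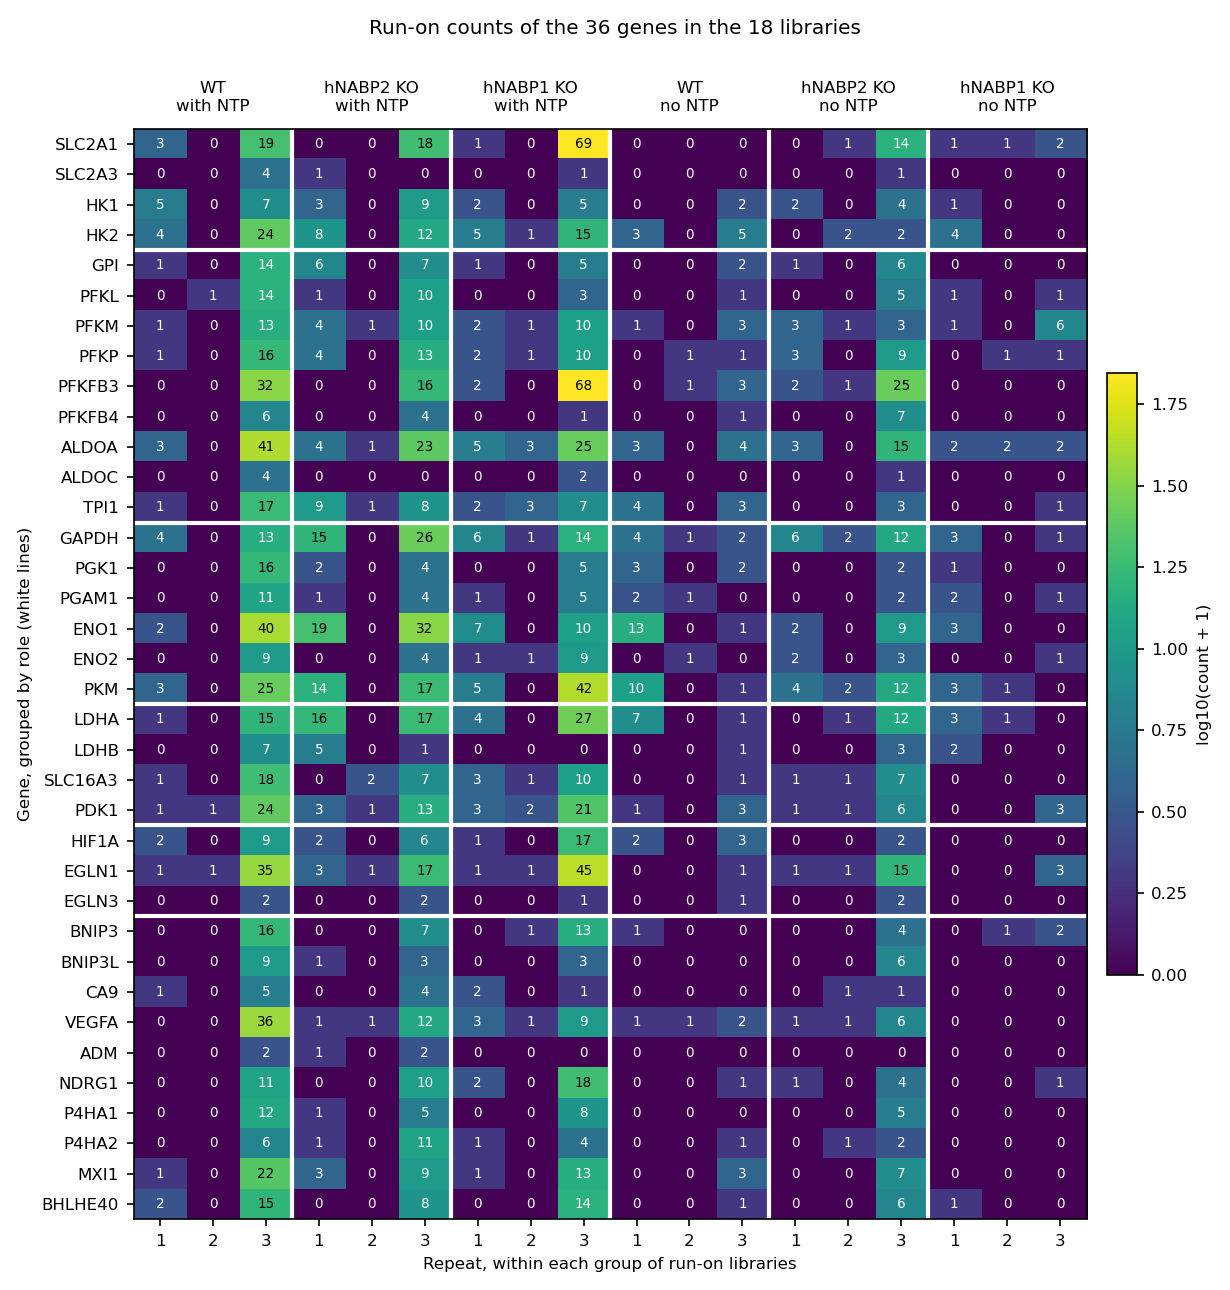
Run-on counts of the 36 genes (rows, grouped by role between white lines) in the 18 libraries (columns, repeats 1 to 3 of each group); the number is the raw count and the colour its log10(count + 1). Repeat 3 holds the most counts in the 3 groups with NTP and in hNABP2 KO without NTP, repeat 2 is mostly 0, and the brightest cells are SLC2A1 with 69 and PFKFB3 with 68 in hNABP1 KO with NTP repeat 3.

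As a share of each library's counts, the 36 genes took 0.317, 0.0510 and 0.346% in WT with NTP (mean 0.238% ± 0.163, SD, n = 3). In hNABP2 KO with NTP they took 0.654, 0.122 and 0.303% (0.359% ± 0.271, SD, n = 3), and in hNABP1 KO with NTP 0.568, 0.225 and 0.441% (0.412% ± 0.173, SD, n = 3). The ranges of the 3 groups overlapped, and repeat 2 was lowest in each of them.

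Without NTP the shares were 0.597, 0.114 and 0.260% in WT (0.323% ± 0.248, SD, n = 3). They were 0.313, 0.191 and 0.281% in hNABP2 KO (0.261% ± 0.0635, SD, n = 3) and 0.418, 0.110 and 0.105% in hNABP1 KO (0.211% ± 0.180, SD, n = 3). The background libraries thus overlapped those with NTP in every genotype. Repeat 3 of hNABP1 KO without NTP also differs from the other repeat 3 libraries in its share of counts on antisense symbols, 12.0%, which is like that of repeats 1 and 2.

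**Figure D4:**
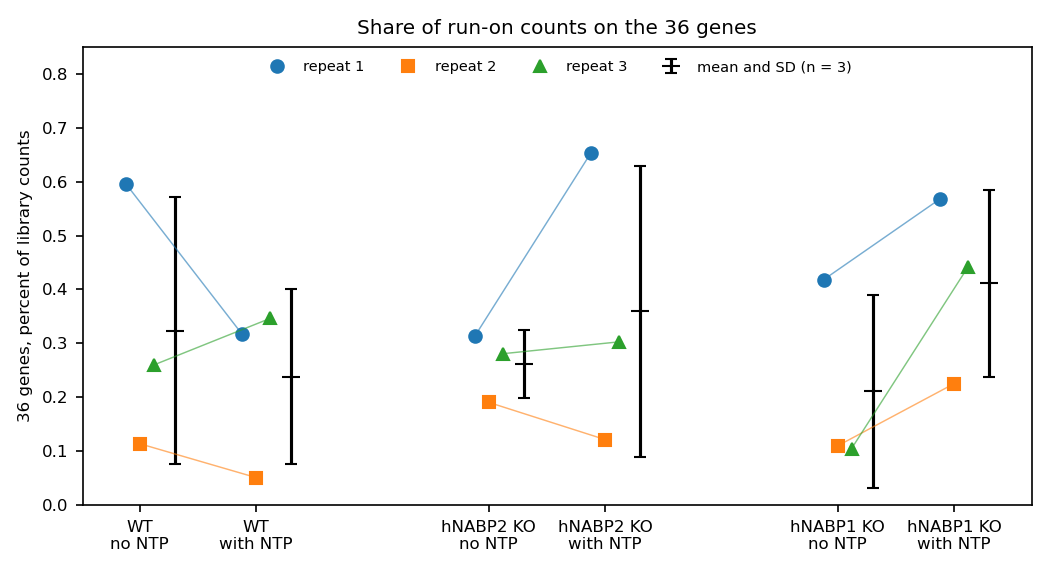
Share of each library's run-on counts on the 36 genes (y axis, percent) by group (x axis), with a symbol per repeat, lines joining the same repeat number without and with NTP, and black bars for mean and SD (n = 3). The bars of all 6 groups overlap, and repeat 2 is the lowest with NTP in each genotype.

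The comparison of hNABP2 KO with WT asks whether transcription of these genes depends on hNABP2, and none of them passed the test. With NTP, 0 of 32 genes tested had an adjusted p under 0.05 by edgeR's quasi-likelihood test, with a background of 0 of 13447 genes (0%). At an unadjusted p under 0.05 there were 0 of the 32 and 41 of all genes, and DESeq2 called 0. With the repeat number as a block in edgeR there were 2 and 112, and none passed the adjusted threshold. The fitted log2 fold change was above 0 for 14 and below 0 for 18, with a median of −0.07, against 53.8% above 0 and a median of 0.07 over all genes. The other HIF targets had 2 above and 7 below 0, and the pyruvate and lactate genes 3 above and 1 below.

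Toward hNABP2 KO, the 3 genes with the smallest p were of late glycolysis. The log2 fold change of LDHA was 2.12 (SE 1.30), of GAPDH 1.58 (SE 1.28) and of ENO1 1.38 (SE 1.22). Toward WT were the repressor BHLHE40 at −0.95 (SE 1.55), BNIP3 at −0.56 (SE 1.55) and PFKFB3 at −0.41 (SE 1.25). The edgeR adjusted p was 1.00 for each of these 6 genes. Without hNABP2 KO repeat 1, LDHA stood at 0.67, GAPDH at 0.56 and ENO1 at 0.32, so their size rests on that library. Without WT repeat 3, BNIP3 and PFKFB3 stood at 3.38 and 4.40 in a fit whose median over all genes was 2.02. Scaled to library size, PFKM, the muscle-type phosphofructokinase, was the 1 gene of the 32 whose hNABP2 KO libraries were all above the WT libraries. The share over all genes was 1.17%, and 0 were all below, against 0.907%. PFKM had 4, 1 and 10 counts in hNABP2 KO and 1, 0 and 13 in WT.

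In hNABP1 KO against WT, 0 of 32 passed either, with a background of 0 of 13447 (0%). At an unadjusted p under 0.05 there were 0 of the 32 and 163 of all genes, and DESeq2 called 0. With the repeat number as a block in edgeR there were 4 and 678. In that fit 0 of the 32 and 16 of all genes passed the adjusted threshold. The fold change was above 0 for 25 and below 0 for 7, with a median of 0.69, against 48.8% above 0 and a median of −0.03 over all genes. Lower glycolysis had 5 above and 1 below, and the other HIF targets 8 above and 1 below. Without hNABP1 KO repeat 3, 15 were above and 17 below 0, with a median of −0.18, but that fit moved the median over all genes to −3.09. With the replicate block as well, 18 were above and 14 below, with a median of 0.32 against −0.14 over all genes. With plain library totals in place of TMM, 20 were above and 12 below, with the median over all genes at −0.40.

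PFKFB3 stood at 1.89 (SE 1.24), SLC2A1 at 1.76 (SE 1.26) and LDHA at 1.67 (SE 1.30) in that comparison. Without hNABP1 KO repeat 3, PFKFB3 and SLC2A1 stood at −0.79 and −1.80, both above the median of −3.09 over all genes in that fit. With the replicate block as well they stood at 4.35 and −0.32, against −0.14 over all genes. The 4.35 of PFKFB3 rests on 2 counts in hNABP1 KO repeat 1, against 0 in WT repeats 1 and 2. LDHB, the other lactate dehydrogenase subunit, had 0, 0 and 7 counts in WT and 0 in all 3 hNABP1 KO libraries with NTP. It was 1.72-fold lower there with the group at 0 set to a floor of 3 counts. Such a value leaves out the counting error of the other group, so it is not a lower bound. PFKL had 3 counts against 15, a pooled ratio of 0.272 (95% exact interval for counting error 0.0504 to 0.960). PFKFB4, a relative of PFKFB3, had 1 count against 6, a ratio of 0.226 (0.00492 to 1.87). The edgeR adjusted p of these 6 genes was 1.00. Scaled to library size, ENO2, PDK1 and PFKM were higher in every hNABP1 KO library than in any WT library. That is 3 of 32 against 0.803% of all genes, and 0 were lower in every one, against 1.23%. ENO2 had 1, 1 and 9 counts against 0, 0 and 9 in WT, and PFKM 2, 1 and 10 against 1, 0 and 13. The separation thus turns on 1 to 3 counts in repeats 1 and 2. All genes had a median of 13 counts against 46 here, so their share is not a matched background.

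**Figure D5:**
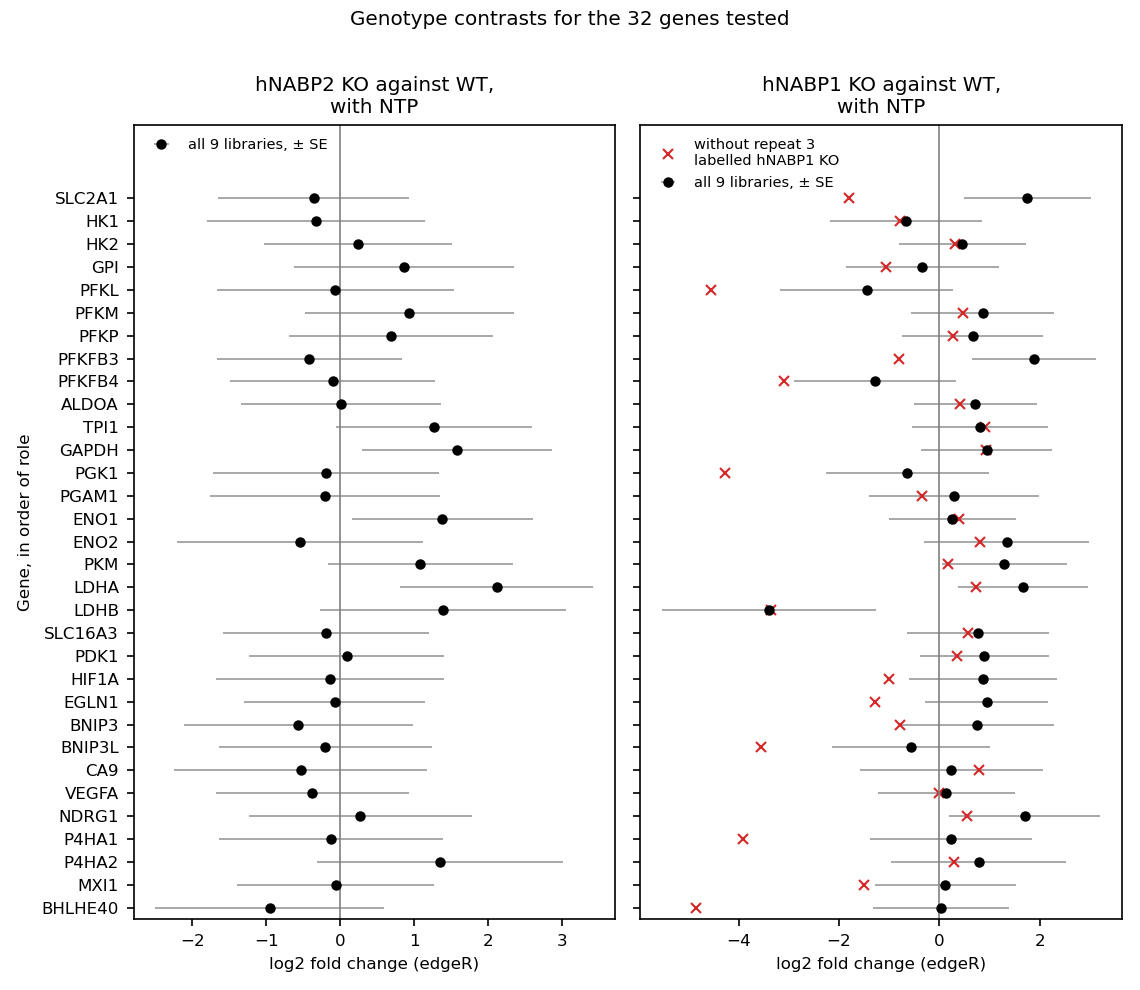
Fitted log2 fold changes (x axis) of the 32 genes tested, with NTP, as black dots with SE, for hNABP2 KO against WT (left) and hNABP1 KO against WT (right), and red crosses for the fit without hNABP1 KO repeat 3. Most SE bars reach or cross 0, and on the right 15 of 32 crosses are above 0 in place of 25 dots, in a fit whose median over all genes is −3.09 in place of −0.03.

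Set directly against each other, hNABP2 KO and hNABP1 KO with NTP differed in 0 of 32 genes (background 0 of 13447, 0%). At an unadjusted p under 0.05 there were 1 of the 32, LDHB, and 248 of all genes, and DESeq2 called 0. With the repeat number as a block in edgeR there were 2 and 691. In that fit 0 of the 32 and 19 of all genes passed the adjusted threshold. The fold change was above 0, that is higher in hNABP2 KO, for 14 and below 0 for 18, with a median of −0.21, against 54.7% above 0 and a median of 0.12 over all genes. LDHB was 1.89-fold higher in hNABP2 KO, against a group at 0 set to the floor, without the counting error of hNABP2 KO. ENO1 had a log2 fold change of 1.13 and PFKL of 1.38. PFKFB3 had −2.30 (SE 1.27), SLC2A1 −2.11 (SE 1.25) and ENO2 −1.89. The edgeR adjusted p was 1.00 for each of them. Without hNABP1 KO repeat 3, PFKFB3 stood at 0.32 and SLC2A1 at 1.4, both below the median of 2.96 over all genes in that fit. With the replicate block as well they stood at −4.77 and 0.30, against 0.16 over all genes. The −4.77 of PFKFB3 rests on 2 counts in hNABP1 KO repeat 1, against 0 in hNABP2 KO repeats 1 and 2. Scaled to library size, ALDOA, ENO2 and PDK1 were lower in every hNABP2 KO library than in any hNABP1 KO library. That is 3 of 32 against 0.967% of all genes, and 0 were higher in every one, against 1.74%. ENO2 had 0, 0 and 4 counts in hNABP2 KO and 1, 1 and 9 in hNABP1 KO. The 3 genotype comparisons share their libraries and are given side by side only.

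The comparison of run-on with and without nucleotides sets the counts of these genes beside the background. Since the libraries are scaled to each other, it shows changes relative to other genes. It does not show how far the signal exceeds the background. In WT 0 of 32 passed the edgeR test (background 0 of 14907, 0%). At an unadjusted p under 0.05 there were 1 of the 32, SLC2A1, and 163 of all genes, and DESeq2 called 0. With the repeat number as a block in edgeR there were 1 and 378. The fold change was above 0 for 22 and below 0 for 10, with a median of 0.40 against 0.93 over all genes, of which 75.1% were above 0. All 9 of the other HIF targets tested were above 0, while lower glycolysis had 1 above and 5 below.

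SLC2A1 had 0 counts in all 3 WT libraries without NTP (edgeR adjusted p = 0.645). With NTP it was 1.36-fold above the floor set for that group, without the counting error of the group with NTP. EGLN1 had a pooled ratio of 6.85 (95% exact interval for counting error 1.16 to 278, 1 count without NTP) and was the 1 gene whose libraries did not overlap, against 1.48% of all genes (in the other direction 0, against 0.624%). LDHA had a log2 fold change of −1.22 and ENO1 of −0.87. The edgeR adjusted p was 0.820 and 0.940. They turned to 1.177 and 2.33 without repeat 1 of WT without NTP, the library in which they had 7 and 13 counts, while the median over all genes was 0.94.

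In hNABP2 KO the effect of NTP passed the test in 0 of 32 (background 0 of 14907, 0%). At an unadjusted p under 0.05 there were 0 of the 32 and 359 of all genes, and DESeq2 called 0. With the repeat number as a block in edgeR there were 1 and 390. There were 24 above 0 and 8 below, with a median of 0.45 against 0.17 over all genes, of which 57.4% were above 0. TPI1, which interconverts the products of aldolase, had a log2 fold change of 2.75 (SE 1.41), with a pooled ratio of 4.15 (95% exact interval for counting error 1.21 to 22.0). It was the 1 gene with no overlap, against 1.32% of all genes (in the other direction 0, against 0.932%). Its counts were 9, 1 and 8 with NTP and 0, 0 and 3 without. ENO1 had 2.06 (SE 1.20), and PFKFB3 and PFKFB4 had −1.37 and −1.02, with an edgeR adjusted p of 1.00 for all 4 genes. PFKFB4 stood at 2.75 without repeat 3 of hNABP2 KO without NTP, where the median over all genes was 2.74.

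In hNABP1 KO 0 of 32 passed (background 0 of 14907, 0%). At an unadjusted p under 0.05 there were 5 of the 32 and 927 of all genes, and DESeq2 called 0. There were 28 above 0 and 4 below, with a median of 1.83 against 1.70 over all genes, of which 75.5% were above 0. For 12 of the 32 a group was at 0, and 5 of these have a fold over the floor. With the 5 set at it and the rest of the 12 left out, the median was 1.16. The 1.70 over all genes was not treated in this way. With NTP, PFKFB3 was 6.42-fold above the floor set for the group without (edgeR adjusted p = 0.4996), and VEGFA 1.19-fold. These 2 folds leave out the counting error of the group with NTP. LDHB had 0 counts with and 2 without NTP, and PFKL 3 and 2, so no fold is given. TPI1, ENO2, SLC16A3, PDK1 and VEGFA did not overlap, all higher with NTP, 5 of 32 against 1.78% of all genes (in the other direction 0, against 0.812%). In repeat 2 with NTP, ENO2, SLC16A3 and VEGFA had 1 count each.

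Other genes of these pathways also gave no calls. Of 35 other glycolysis and pyruvate genes, 14 HIF regulators and 48 other HIF targets in the table, 0 were called in any of the 6 comparisons, with 24, 14 and 39 tested between genotypes. In hNABP2 KO against WT, 13, 8 and 20 of them were above 0, and in hNABP1 KO against WT, 12, 7 and 15. Anti-hNABP2 promoter peaks in repeat 1 were annotated to 14 of the 35, 11 of the 14 and 26 of the 48, against 28.4% of all genes and 48.4% of those with at least 10 run-on counts. In both repeats they were annotated to 1, 4 and 6, against 7.76 and 13.3%. The 1 was the muscle enolase ENO3. Among the regulators they were at ARNT2, CREBBP, CUL2 and EGLN2, and among the other HIF targets at AK4, ERO1A, KDM4B, P4HB, PLOD2 and ZNF395.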

How the data were processed

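Run-on counts are the deposited whole-number counts per gene symbol in 18 GRO-seq libraries, not scaled by the authors. The ChIP, DRIP and run-on peak lists are the authors' own, called per library. Their fold values are ratios of summit over local background, and their −log10 p and −log10 q values stand as deposited. Per the submitters' processing notes, cutadapt 1.18, Bowtie2 2.3.5, SAMtools and MACS2 2.2.1 were used with hg38. The sources used here do not give the settings, the strand setting of the counting or the controls of the peak calling. Peaks are annotated to genes as in the deposited tables, per the file headers.

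The 36 genes, the outside lists and the tests were chosen with earlier results of these data known. Genes with at least 10 counts summed over the libraries of a fit (9 for genotypes, 18 for NTP) were tested with edgeR 4.0.16 in R 4.3.3 (TMM, quasi-likelihood F test, Benjamini-Hochberg over all genes, threshold 0.05), tested on simulated data first; DESeq2 1.42.0 was the alternative. Other alternatives were library totals, other filters, a replicate block, each library left out, and for peaks a stricter q and other distances or overlaps. Intervals cover counting error only. Floors (3 counts) replace a group at 0, and folds against them leave out the counting error of the other group. Genes named are the 12 with the most counts, the 3 (genotype) or 2 (NTP) with the smallest p per direction, and those with peaks as described. HK1 and PFKM sequences were replaced by PFKL and ENO2. HK1's window is crossed by another transcript's exon, which leaves 30 bases, and PFKM's starts lie under the SENP1 peak. No sequence runs past an annotated start, and BNIP3 is shown cut.

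Repeat numbers come from the labels. Residuals of same-numbered libraries after removing group means, over 14907 genes, correlated at r above 0.1 in 9 of 9 genotype pairs. They also did in all pairs for NTP in WT and hNABP2 KO but not in hNABP1 KO (over all 18 pairs −0.109 to 0.542). The numbers thus pair the libraries of all these comparisons but NTP in hNABP1 KO. The main fits leave this pairing out, and their p and SE do not account for it. Only the replicate block does.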

Additional observations from a re-analysis of the deposited data

Results flagged for a closer look

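Among 65 pairs of effects compared between groups, 2 had every repeat of 1 group on one side and every repeat of the other on the opposite side. The differences themselves were not tested. With so few repeats, some pairs can meet this rule by chance alone. How many of the 65 would do so was not worked out, so the 2 are not set apart from chance. Libraries are matched by repeat number, which did not meet the pairing check for NTP in hNABP1 KO and was not checked between genotypes without NTP.

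In these libraries the effect of NTP on GAPDH had opposite signs in WT and in cells labelled hNABP1 KO. The fitted log2 fold change was −0.48 (SE 1.28) in WT and 1.16 (SE 1.31) in hNABP1 KO, neither larger than its SE. In WT, GAPDH was lower with NTP than without in 3 of 3 repeats, at 334, 0 and 79.1 CPM (counts scaled to library size) with NTP and 434, 190 and 104 without. In hNABP1 KO it was higher in 3 of 3, at 541, 132 and 121 with NTP and 448, 0 and 41.9 without. Repeat 2 rests on 0 against 1 count in WT and 1 against 0 in hNABP1 KO. The mean effect in WT minus that in hNABP1 KO was −206 CPM.

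The share of counts on the 36 genes was above WT in 3 of 3 hNABP1 KO repeats with NTP and below WT in 3 of 3 without. Without NTP, repeat 2 had 7 of 6374 counts in hNABP1 KO (0.110%) and 6 of 5272 in WT (0.114%), a difference of less than 1 count. The difference between these 2 mean differences was 0.286 percentage points of library counts. Repeat 3 of hNABP1 KO stands apart in both conditions, with 9965 run-on peaks with NTP.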

How the results depend on the processing

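None of the 36 genes passed the threshold under any alternative run. With the replicate block, 16 of all genes were called in hNABP1 KO against WT, 19 in hNABP2 KO against hNABP1 KO and 1 for NTP in hNABP1 KO. With repeat 3 of hNABP1 KO also left out (with NTP between genotypes, no NTP for NTP), an alternative chosen after seeing the data, there were 0, 0 and 0. The block changed no other call. Of 324 values of the 30 named gene results under alternatives, 13 changed sign. Leaving out each library in turn, the log2 fold changes ran in hNABP2 KO against WT from −4.14 to 3.38 for BNIP3 and −5.02 to 4.40 for PFKFB3, in hNABP1 KO against WT from −0.79 to 6.69 for PFKFB3 and −1.80 to 2.23 for SLC2A1, and between the knockouts from −6.95 to 0.32 for PFKFB3 and −6.91 to 1.4 for SLC2A1. With the replicate block and hNABP1 KO repeat 3 left out, SLC2A1 gave −0.32 against WT and 0.30 between the knockouts, and PFKFB3 kept its sign at 4.35 and −4.77. Both PFKFB3 values rest on 2 counts in hNABP1 KO repeat 1, against 0 in repeats 1 and 2 of WT and of hNABP2 KO. For NTP the log2 fold changes ran in WT from −2.43 to 1.177 for LDHA and −2.37 to 2.33 for ENO1, in hNABP2 KO from −3.67 to 2.75 for PFKFB4, and in hNABP1 KO from −3.43 to 0.016 for PFKL, which DESeq2 put at 0.094. Leaving out a repeat 3 library also moved the median over all genes, to −3.09 in hNABP1 KO against WT and 2.96 between the knockouts, so a change of sign in those fits is not particular to the gene. The causes were not tested. The number of the 32 genes above 0 ran from 10 to 24 and 15 to 26 against WT, and 5 to 24 between the knockouts. At a −log10 q of at least 10, the 9 genes with ChIP promoter peaks in both repeats became 0 and those of repeat 2 became 1; repeats 1 and 2 alone gave 28 and 9. Run-on peak genes at that q were 0 in repeat 1 of WT and hNABP2 KO, 0 in repeats 1 and 2 of hNABP1 KO and 9 in its repeat 3, where the peak centre gave 10. The filter of filterByExpr left 129 genes for genotype and 211 for NTP, with 0 of the 36. The SE of the named log2 fold changes was 1.17 or more, and a log2 fold change of 4.79 (LDHB, SE 2.24) did not pass.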

Other observations

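The antisense symbols at HIF1A were spread over the repeats in another way than HIF1A. HIF1A-AS1 had 145 counts, with 67, 43 and 35 in repeats 1, 2 and 3, while HIF1A had 7, 0 and 37. HIF1A-AS2 had 32 counts, of which 28 were in repeat 1. Other antisense symbols were highest in repeat 3, as their partners were: SLC2A1-AS1 had 1, 1 and 47 counts against 5, 2 and 122 of SLC2A1, and BHLHE40-AS1 had 3, 5 and 18 against 3, 0 and 44 of BHLHE40. These differences were not tested.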
